A study of Mus musculus with 9 samples.

Results

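The genes described here are the Hox genes, as measured in RNA of mouse spinal cord on 9 one-colour oligonucleotide arrays. A probe set, the group of short oligonucleotides that reports 1 transcript, was taken as a member when its annotation gave exactly 1 gene symbol and that symbol was Hoxa, Hoxb, Hoxc or Hoxd with a number. The rule uses no measured value. It found 38 of the 12488 probe sets, for 31 of the 8252 genes named by a single symbol. All 38 were kept.

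All samples came from B10.PL mice, 3 arrays to each of 3 groups. Naive mice are replicates 2, 3 and 4. EAE, or experimental autoimmune encephalomyelitis, is a disease in which immune cells attack myelin of brain and cord, used to model multiple sclerosis. Mice with EAE received either placebo (replicates 1, 5 and 10) or 200 ng of calcitriol, the active vitamin D hormone 1,25(OH)2D3 (replicates 6, 7 and 8). Cord was collected 6 h after placebo or calcitriol. The title of calcitriol replicate 6 reads 1,25(OH)2D2, while its description names 1,25(OH)2D3. Age, the way EAE was induced, disease stage and the level of cord taken are not given in the sources used here. Naive mice have no placebo in the labels, so EAE and placebo treatment cannot be told apart in comparisons with them. Whether replicates are separate animals is not stated, and the p-values cover only the spread from sample to sample, which may be technical.

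Hox genes encode transcription factors that share a DNA-binding homeodomain. In mammals they lie in separate clusters, A to D, and genes in the same place in different clusters form a paralogue group, which gives the gene its number. During development, genes at the low-numbered end of a cluster are switched on further forward, in the hindbrain and neck, and those at the high-numbered end further back, so the combination in a cell marks its place along the body. In the spinal cord this code sorts motor neurons into the columns and pools that serve diaphragm, limbs and trunk. Retinoic acid and Cdx factors help to switch the clusters on, Polycomb complexes keep them silent elsewhere, and Pbx and Meis proteins bind DNA together with Hox proteins.

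Signals are in intensity units, scaled to a common mean of 192.8 on every array. The table holds no calls of presence or absence, so background was read from 99 probe sets for 84 genes of other organs, such as liver, pancreas, testis and retina. The background limit of an array was the 90th percentile of these signals, and it ran from 356 to 511 over the arrays. A probe set counted as above background when it exceeded the limit on all 9 arrays. Probe sets bind their targets unequally, so a low signal does not show a low amount of RNA.

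Hox signals lay in the same range as those of genes that spinal cord should lack. Only 1 of 38 Hox probe sets (2.63%) was above background on all 9 arrays, against 5 of 99 other-organ probe sets (5.05%) and 6.48% of the 12422 probe sets outside the controls. The median of the mean signals was 121 for Hox, 99.2 for the other-organ probe sets and 128 for all probe sets. On single arrays the median Hox probe set was brighter than 49.0% (calcitriol replicate 6) to 65.2% (naive replicate 3) of the other-organ probe sets. The quartiles overlapped widely, at 58.6 and 182 for Hox and 49.3 and 214 for the other-organ probe sets. With the same limit, 5 of 14 probe sets for neuron markers were above background, among them Snap25 of the synaptic release machinery (591 to 3380) and the neurofilament gene Nefh (513 to 2203). The same held for 3 of 13 for oligodendrocyte markers and 2 of 9 for astrocyte markers. The limit was also missed on all 9 arrays by 6 of the neuron, 5 of the oligodendrocyte and 1 of the astrocyte marker probe sets. Among them were Syt1 (-8.22 to 72.8) and Cnp (11.4 to 39.5), so falling under the limit does not show that a gene is absent.

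**Figure D1:**
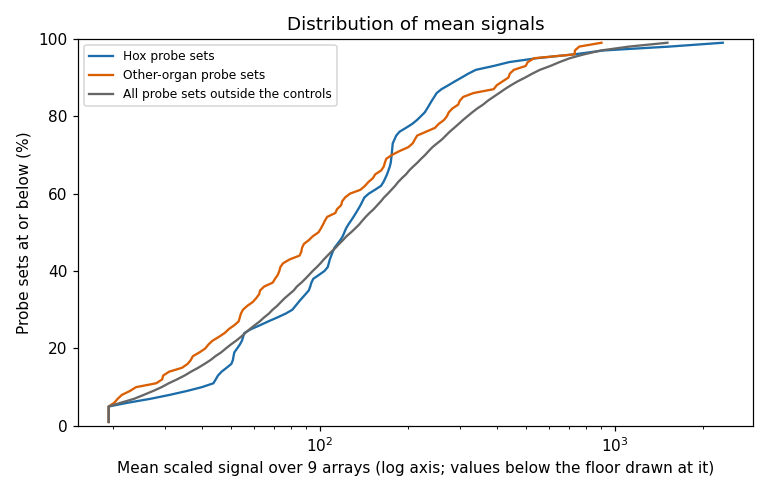
Cumulative distribution of the mean scaled signal over 9 arrays (log axis, intensity units) for Hox probe sets, probe sets of genes of other organs, and all probe sets outside the controls. The Hox curve, with a median of 121, runs beside that of the other-organ genes, with a median of 99.2, over most of its range.

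The member above background on every array was 1 of the 4 probe sets for Hoxa4, a gene of the neck and upper cord. This probe set, 97747_r_at, measured 2070, 3530 and 4298 on naive replicates 2, 3 and 4. It measured 2521, 3109 and 3554 on placebo replicates 1, 5 and 10, and 3115, 2864 and 3027 on calcitriol replicates 6, 7 and 8. All 3 groups overlapped, and the lowest and the highest array were both naive. The suffix _r marks a probe set whose oligonucleotides broke some of the manufacturer's design rules. The other Hoxa4 probe sets disagreed with it: 97745_at ran from 66.0 to 105, 162402_r_at from 145 to 218, and 97746_f_at, with oligonucleotides shared within a family, from -17.1 to 44.3. Hoxa4 is therefore not placed above background by the gene's only plain probe set, 97745_at.

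Hoxa13, a gene of the limb tip and the hindmost body, came next. Its single probe set, 94636_at, gave 1132 and 1152 on naive replicates 3 and 4, 1152, 1045 and 1102 on the placebo arrays, and 1095, 1129 and 922 on the calcitriol arrays, but exactly 0 on naive replicate 2. It thus exceeded the limit on 8 of 9 arrays. This probe set is listed at 0 there while every other array lay between 922 and 1152. With exact zeros ignored, a choice made after the values were seen, 2 Hox probe sets were above background. Leaving out naive replicate 2 also gave 2.

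Just under the limit lay a probe set for Hoxa6, 102580_r_at, at 418 to 544, which passed on 6 of 9 arrays. The other Hoxa6 probe set, 102579_f_at, ran from 7.81 to 58.7, so the pair disagreed as the Hoxa4 sets did. For Hoxb8, a gene of the dorsal horn, 96418_r_at ran from 255 to 535 and passed on 1 array, naive replicate 2, while 96417_s_at ran from 22.2 to 87.8. Of these 4 probe sets that passed on any array, 3 were thus of the _r type, and the partner probe sets of the same genes never passed. No other Hox probe set passed the limit on any array. At a lower limit, the 75th percentile of the other-organ genes, 4 Hox probe sets were above it on all arrays: these 3 and Hoxb6.

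**Figure D2:**
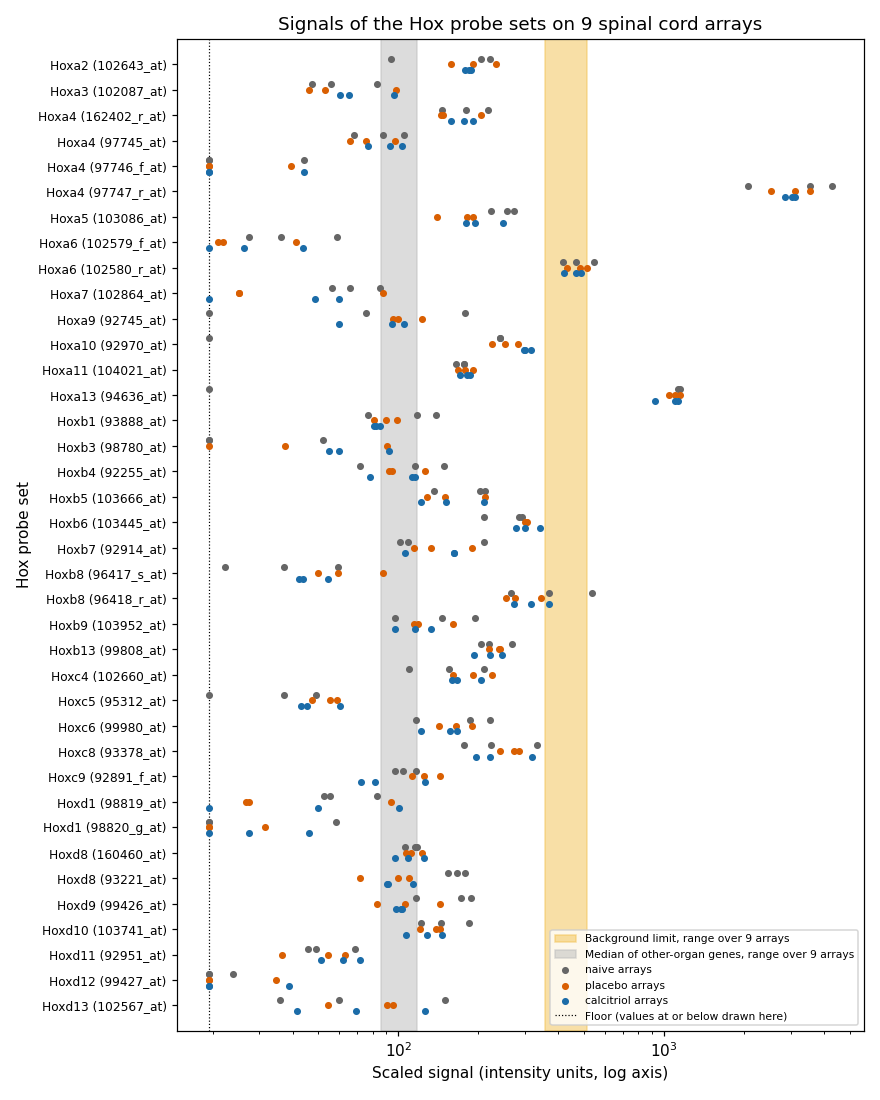
Scaled signal (log axis, intensity units) of each of 38 Hox probe sets on 9 arrays, coloured by group, with the range of the background limit (356 to 511) and of the median of other-organ genes (86.1 to 117) over the arrays. Only Hoxa4 (97747_r_at) lies above the limit on all arrays, and Hoxa13 does so on 8 of 9, with naive replicate 2 at the floor.

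By position in the clusters, the counts above the other-organ median on all 9 arrays were 0 of 6 probe sets for paralogue groups 1 to 3, 10 of 20 for groups 4 to 8 and 3 of 12 for groups 9 to 13. This median is a weak bar, since it is the middle of the reference probe sets themselves. Above the background limit itself, groups 1 to 3 had 0, groups 4 to 8 had 1 (Hoxa4) and groups 9 to 13 had 0. The counts for groups 9 to 13 rest on exact zeros of Hoxa13 and Hoxa10: with exact zeros ignored, 5 of 12 were above the other-organ median and 1 (Hoxa13) above the limit, while the counts of the other groups stayed at 0 and 0 (groups 1 to 3) and at 10 and 1 (groups 4 to 8). Below the other-organ median on all 9 arrays lay 2, 5 and 2 probe sets, respectively, and 27 of the 38 were above the floor on every array. Levels are not ranked between genes, since the probe sets differ.

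Among hindbrain and neck genes, Hoxb1, which patterns the fourth hindbrain segment, ran from 76.9 to 139. The probe sets for Hoxd1, a gene of pain-sensing neurons, ran from 0 to 100 (98819_at) and from -17.5 to 58.3 (98820_g_at). Hoxa2, which patterns the hindbrain and the second pharyngeal arch, lay between 93.4 and 233, with naive replicate 4 lowest. Hoxa3, needed for thymus and parathyroid, ran from 46.1 to 98.1 and Hoxb3 from -25.0 to 92.5. None of these came within the range of the background limits.

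Genes of the neck and upper limb levels were dim to moderate. Hoxb4 ran from 71.8 to 149 and Hoxc4 from 109 to 225. Hoxa5 and Hoxc5, which specify the motor neurons of the diaphragm, ran from 140 to 273 and from 16 to 60.1. Hoxb5 ran from 121 to 213, and Hoxb6 from 210 to 341. Hoxc6, a determinant of the motor column for the forelimb, lay between 116 and 221, and Hoxc8, which sets motor pools in the same segments, between 177 and 334. Hoxa7 ran from 9.24 to 87.7 and Hoxb7 from 101 to 210. The probe sets for Hoxd8 ran from 97.3 to 124 (160460_at) and from 71.7 to 178 (93221_at).

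Trunk and hindlimb genes gave the same picture. Hoxc9, which sets thoracic identity, ran from 72.1 to 143, Hoxb9 from 96.7 to 194 and Hoxd9 from 82.8 to 188. Hoxa9, also used by blood progenitors, ran from 59.8 to 178 beside an exact 0 on naive replicate 3. Hoxa10 and Hoxd10, which specify lumbar motor neurons, ran from 225 to 315 (beside an exact 0 on naive replicate 4) and from 107 to 184. The probe sets for Hoxd9 and Hoxd10 are listed with the same source sequence in the annotation, so the 2 names are uncertain. Hoxa11, which shapes the forearm and the uterus, stayed between 165 and 192. Hoxd11 ran from 36.6 to 71.6, Hoxd12 from -60.5 to 38.7, Hoxb13 from 193 to 268 and Hoxd13 from 35.9 to 150.

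Whether the 3 groups differ was asked with 1 linear model for all 12177 probe sets that rose above a floor of 19.3 on at least 3 arrays, which all 38 Hox probe sets did. No Hox probe set was called different among the groups, which with 3 arrays per group does not show equal levels. The moderated F test of limma gave 0 of 38 at a Benjamini-Hochberg adjusted p under 0.05, where 1.3% of all probe sets were called. At an unadjusted p under 0.05 it gave 2 of 38, Hoxd8 (93221_at, limma adjusted p = 0.204) and Hoxa5 (limma adjusted p = 0.515), against 9.34% of all probe sets. With array weights, which count an array less the farther its probe sets stray from the fit, the F test gave 1 of 38, Hoxb8 (96417_s_at), where it called 6.38% of all. The array with the largest weight, naive replicate 3, held the lowest value of this probe set, 22.2.

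In placebo-treated EAE against naive cord, limma called 0 of 38 Hox probe sets (adjusted p under 0.05), where 0.936% of all probe sets were called. At an unadjusted p under 0.05 there were 2 of 38, against 9.33% of all. Of the 38 differences 19 were positive and 19 negative. Their median was -0.02 log2, as was that of all probe sets. The median size of a difference, sign aside, was 0.20 log2 for Hox and 0.23 log2 for all. The groups did not overlap for 3 of 38 probe sets, Hoxd8 (93221_at) and Hoxa5, lower in EAE, and Hoxb6, higher, while 14.5% of all probe sets had no overlap (7.39% higher and 7.13% lower).

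The Hox probe set with the smallest p in this comparison was 93221_at for Hoxd8. It read 178, 153 and 167 on naive replicates 2, 3 and 4, against 109, 100 and 71.7 on placebo replicates 1, 5 and 10. All naive arrays lay above all placebo arrays. The difference was -0.85 ± 0.22 log2 (SE, n = 3 per group, limma adjusted p = 0.169), and its 95% interval ran from -1.34 to -0.35. The other probe set for the gene, 160460_at, did not share it. That probe set read 106, 115 and 118 on naive and 123, 107 and 111 on placebo arrays, a difference of 0.01 ± 0.19 log2 (SE, limma adjusted p = 0.996). The probe sets for Hoxd8 therefore disagree.

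Hoxa5 read 273, 256 and 222 on the naive arrays and 190, 140 and 182 on placebo replicates 1, 5 and 10. The difference was -0.56 ± 0.19 log2 (SE, limma adjusted p = 0.335). Hoxb8 (96417_s_at) read 59.1, 22.2 and 37.0 on the naive arrays against 49.8, 59.5 and 87.8 on the placebo arrays, which overlapped. Its difference was 0.81 ± 0.39 log2 (SE, limma adjusted p = 0.59), while 96418_r_at for the same gene stood at -0.37 ± 0.25 log2 (SE). With array weights, which gave naive replicate 3 a weight of 4.38 and naive replicates 2 and 4 weights of 0.26 and 0.41, 4 Hox probe sets passed, where 5.25% of all did. They were Hoxd8 (93221_at), Hoxa5, Hoxb8 (96417_s_at) and Hoxa9. Hoxa9 has its exact 0 on naive replicate 3, the heavily weighted array, so this call sets the EAE arrays mostly against a value listed at 0. For Hoxb8 (96417_s_at) the same array held the lowest naive value, 22.2, near the floor of 19.3. The weights moved its difference from 0.81 to 1.37 log2.

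**Figure D3:**
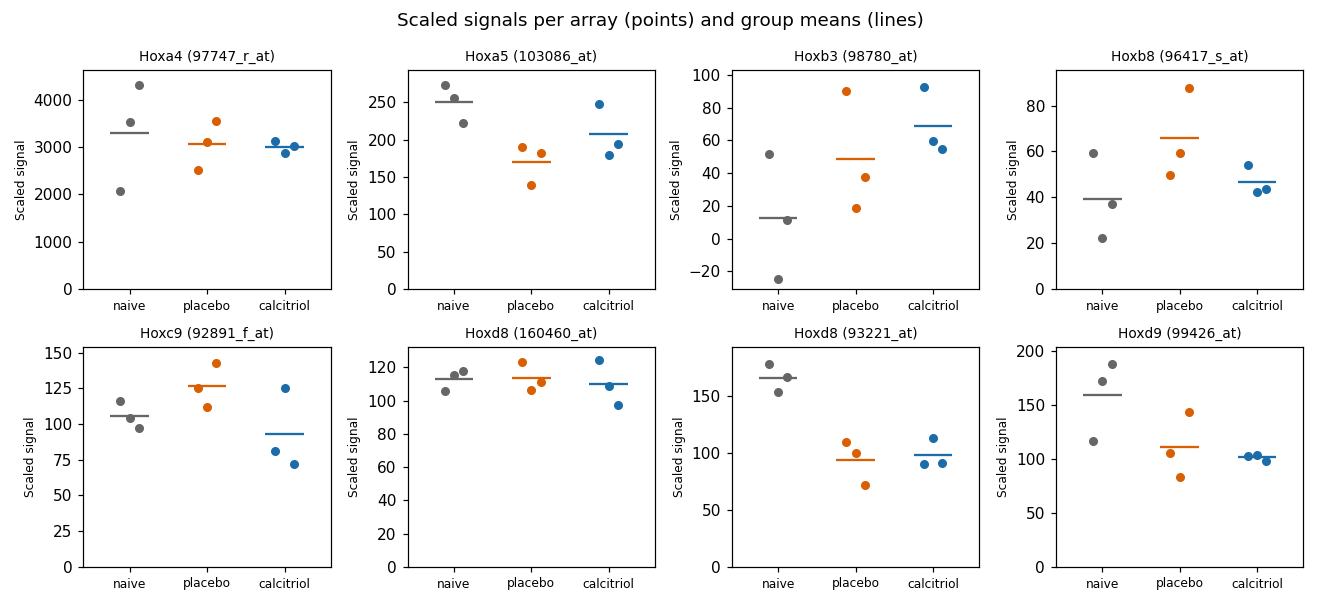
Scaled signal (intensity units) on each array, as points, with the group mean as a line, for the probe set above background on all arrays (Hoxa4), the members with the smallest unadjusted p in each comparison, and the second Hoxd8 probe set. For Hoxd8 (93221_at) all naive arrays lie above all EAE arrays, which is not seen with the other Hoxd8 probe set (160460_at).

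Calcitriol was set against placebo within EAE to see whether the hormone moved these genes within 6 h. No Hox probe set was called by limma (0 of 38 at an adjusted p under 0.05, and 0 at an unadjusted p under 0.05). No probe set of any kind was called either (0%), and 2.58% had an unadjusted p under 0.05. Of the 38 differences 17 were positive and 21 negative, with a median of -0.02 log2, beside 0.00 log2 for all probe sets. The median size was 0.10 log2 for Hox and 0.17 log2 for all. The groups did not overlap for 1 of 38, against 9.99% of all probe sets (4.82% higher and 5.17% lower). Hoxa10 read 315, 299 and 298 with calcitriol and 225, 253 and 282 with placebo. Its fitted difference was 0.27 ± 0.80 log2 (SE, limma adjusted p = 1), from a fit that pools the spread over the groups and so includes the exact 0 on naive replicate 4.

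The smallest p in this comparison was that of Hoxc9, whose only probe set, 92891_f_at, has oligonucleotides shared within a family. It read 81.3, 125 and 72.1 on calcitriol replicates 6, 7 and 8 and 125, 112 and 143 on the placebo arrays, with overlap. The difference was -0.48 ± 0.25 log2 (SE, limma adjusted p = 1). Hoxa5 read 248, 179 and 195 with calcitriol, a difference from placebo of 0.28 ± 0.19 log2 (SE, limma adjusted p = 1). Hoxb3 read 92.5, 59.7 and 55.0 with calcitriol and 90.4, 18.6 and 37.5 with placebo (0.74 ± 0.59 log2, SE, limma adjusted p = 1). The calcitriol and placebo arrays overlapped for both genes. Placebo replicate 5 lay below the floor for Hoxb3, and its difference moved to 0.21 log2 without that array, to 1.32 log2 without placebo replicate 1 and to 0.39 log2 with the floor raised to 20% of the common mean.

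Calcitriol-treated EAE against naive cord shares its arrays with both comparisons above. Limma called 0 of 38 Hox probe sets (adjusted p under 0.05), where 2% of all probe sets were called, and 2 of 38 had an unadjusted p under 0.05, against 11.9% of all. Of the 38 differences 18 were positive and 20 negative, with a median of -0.02 log2, the same as for all probe sets. The groups did not overlap for 4 of 38 probe sets, Hoxd8 (93221_at) and Hoxd9, lower, and Hoxb3 and Hoxa10, higher, beside 16.1% of all (8.45% higher and 7.69% lower). For Hoxd8 the calcitriol arrays read 90.3, 113 and 91.2, which gave -0.76 ± 0.22 log2 against naive (SE, limma adjusted p = 0.154). The second Hoxd8 probe set stood at -0.04 ± 0.19 log2 (SE, limma adjusted p = 0.966).

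Hoxd9 read 116, 172 and 188 on naive replicates 2, 3 and 4 and 102, 103 and 97.8 on the calcitriol arrays. The calcitriol arrays lay close together and below all naive arrays, and the difference was -0.62 ± 0.26 log2 (SE, limma adjusted p = 0.385). Its placebo arrays, at 106, 82.8 and 143, overlapped both groups. With array weights Hoxd9 was the 1 Hox probe set that passed in this comparison, where 8.33% of all did. Hoxb3 read 51.9, -25.0 and 11.2 on the naive arrays, 2 of which were at or below the floor. Its difference, 1.32 ± 0.59 log2 (SE, limma adjusted p = 0.42), therefore depends on the floor.

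The SE behind these results was close to that of the array as a whole. The median SE of a difference was 0.28 log2 for Hox and 0.29 log2 for all probe sets. The 95% interval lay within a 2-fold change in either direction for 25 of the 38 Hox probe sets in calcitriol against placebo, and for 23 and 22 in the comparisons of placebo and of calcitriol with naive. Over all probe sets the shares within 2-fold were 61.0%, 55.5% and 53.8%, beside 65.8%, 60.5% and 57.9% for Hox. For the other Hox probe sets a change of that size was not detectable or not excluded by the interval. Among the tightest was Hoxa11, whose difference between placebo and naive cord was 0.06 log2 with an interval from -0.27 to 0.38. Naive arrays varied most, with a median SD of 0.45 log2 for Hox probe sets, against 0.26 on placebo and 0.23 on calcitriol arrays. Over all probe sets the median SD was 0.36 on naive, 0.23 on placebo and 0.25 on calcitriol arrays.

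The exact zeros carried some of the large fitted differences. Hoxa13 stood at 1.91 ± 1.28 log2 (SE) and Hoxa10 at 1.28 ± 0.80 log2 (SE) in placebo against naive. With exact zeros treated as missing they stood at -0.06 and 0.07 log2, and Hoxa9 moved from 0.72 to -0.14 log2. For Hoxd1 (98819_at), whose exact 0 is on calcitriol replicate 6, calcitriol against placebo moved from 0.16 to 0.79 log2 (limma adjusted p = 1). The adjusted p of all 4 stayed above 0.05 in each comparison.

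**Figure D4:**
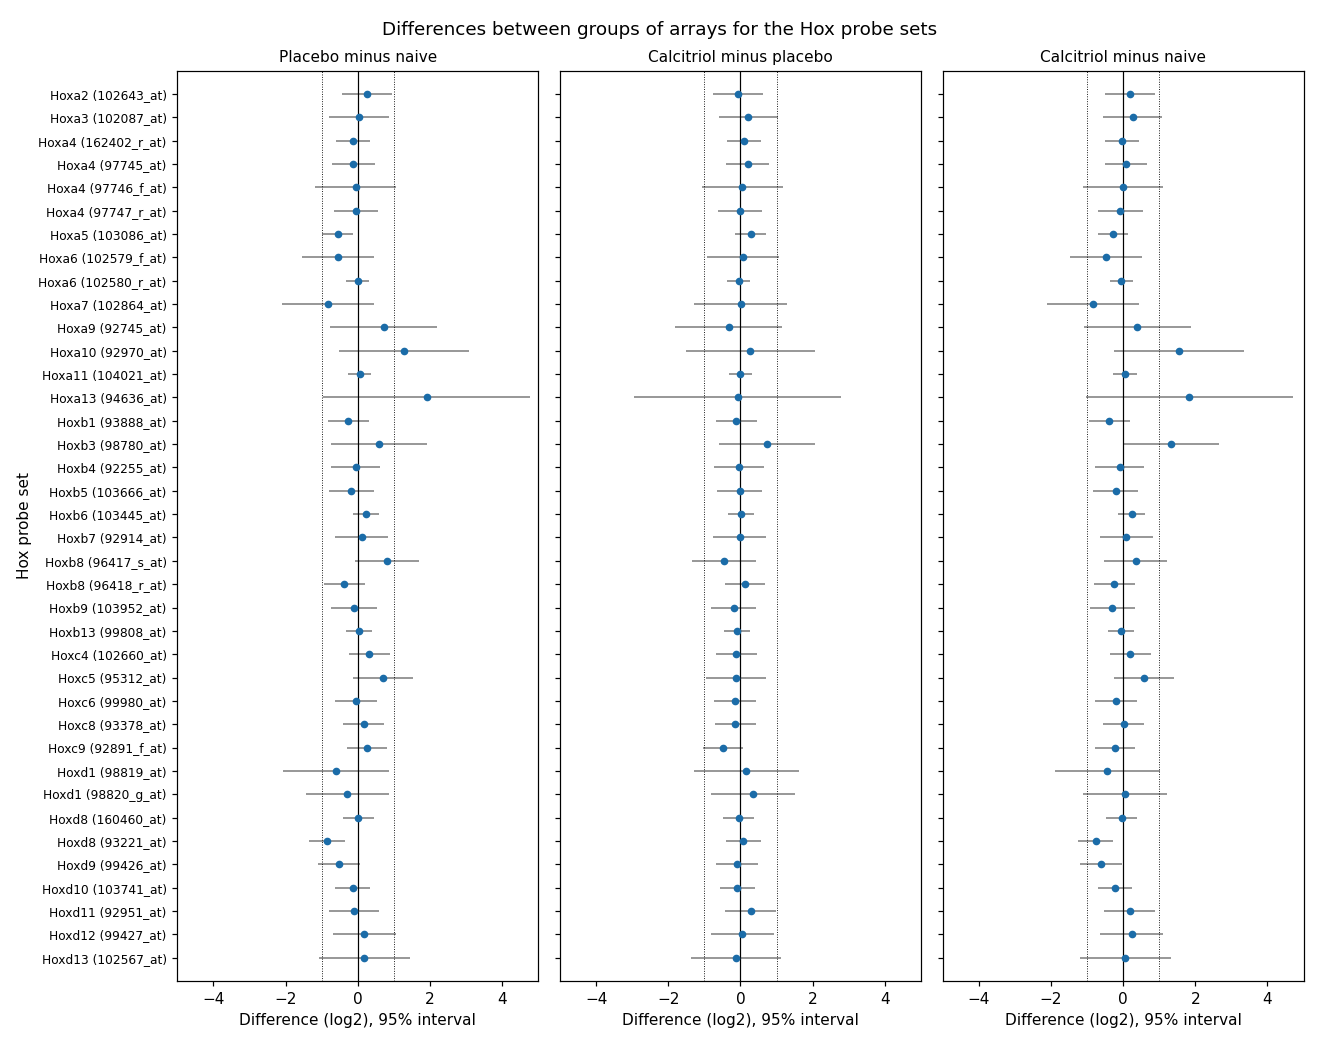
Difference between groups (log2, points) with its 95% interval (lines) for each of 38 Hox probe sets in the 3 comparisons, from 1 limma fit; dotted lines mark a 2-fold change. None passed the adjusted threshold, and the widest intervals, of Hoxa13 and Hoxa10, belong to probe sets listed at exactly 0 on 1 naive array.

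The groups differed in other ways that accompany the comparisons. Of 22 probe sets for leukocyte markers, limma called 7 higher in placebo against naive and 11 higher in calcitriol against naive (adjusted p under 0.05). Over all probe sets it called 0.936% and 2% there, in either direction. The leukocyte marker sum lay between 3318 and 3356 in naive cord, between 5241 and 6292 with placebo and between 5944 and 8693 with calcitriol. The Ptprc probe sets, for the pan-leukocyte antigen CD45, had medians of 25.2 to 38.3. The neuron marker sum lay between 7389 and 14827 in naive cord, between 5538 and 7292 with placebo and between 5076 and 5863 with calcitriol. Limma called 0 of the 13 neuron marker probe sets tested in each comparison. At an unadjusted p under 0.05 there were 4 in placebo against naive, 0 in calcitriol against placebo and 7 in calcitriol against naive. The shares of all probe sets were 9.33%, 2.58% and 11.9%. In each comparison with naive, 1 of these neuron probe sets, for Stmn2, was higher and the rest were lower. That probe set stood at 1.86 log2 with placebo and 1.83 log2 with calcitriol, but its naive values include a 0. The other Stmn2 probe sets stood at -0.67 and -0.76 log2 with placebo and at -0.80 and -0.73 log2 with calcitriol. Nefl, which also has a 0 among its naive values, stood at 1.11 and 1.02 log2. Of 13 oligodendrocyte marker probe sets 1 was called, lower in calcitriol against naive. It measures Mog, found on the outside of myelin, which stood at -1.83 ± 0.30 log2 (SE, limma adjusted p = 0.0158). The astrocyte marker sum lay between 7811 and 12478 in naive cord, between 12757 and 13963 with placebo and between 7549 and 11753 with calcitriol. The placebo arrays thus overlapped neither other group, while limma called 0 of the 9 astrocyte marker probe sets in each comparison. Fewer cells of a type and less RNA per cell cannot be told apart in whole cord. The beta-actin 5′ minus 3′ difference, a sign of RNA or labelling quality, was -0.25 to 0.12 log2 on naive and -1.11 to -0.42 log2 on EAE arrays. The part of these in the Hox values was not tested. Fibroblast and meninges markers, whose cells also use Hox genes, had overlapping sums of 6598 to 7805, 7113 to 8226 and 6235 to 7857, with 1 of 20 probe sets higher in each comparison with naive.

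Genes that work with or control Hox genes gave much the same picture. Of 8 probe sets for the Hox cofactors Pbx2, Pbx3, Pknox1, Meis1, Meis2 and Meis3, 0 were above background and limma called 0 in each comparison (adjusted p under 0.05). At an unadjusted p under 0.05 there was 1 in each comparison, each time a probe set of Pbx3. The shares of all probe sets were 9.33% in placebo against naive, 2.58% in calcitriol against placebo and 11.9% in calcitriol against naive. Pbx3 (93615_at) stood at -1.70 ± 0.42 log2 in calcitriol against naive (SE, limma adjusted p = 0.0938), at -1.11 ± 0.42 log2 against placebo (SE, limma adjusted p = 1) and at -0.59 ± 0.42 log2 in placebo against naive (SE, limma adjusted p = 0.745). Its arrays did not overlap in any of the 3 comparisons. The lowest value of this probe set, 9.45, was on a calcitriol array and below the floor. The size of both of its differences that involve calcitriol therefore depends on the floor. The other Pbx3 probe sets were also lower against naive: in calcitriol against naive 96580_at stood at -0.83 log2, without overlap, and 93616_g_at at -0.54 log2, with overlap. Meis2 stood at 0.28 log2 in calcitriol against naive (limma adjusted p = 0.591), with overlap. In calcitriol against placebo 96580_at stood at 0.56, 93616_g_at at -0.18 and Meis3 at 0.26 log2. In placebo against naive 96580_at, listed at 0 on placebo replicate 10, stood at -1.38 log2 (limma adjusted p = 0.489). There 93616_g_at stood at -0.36 log2 (limma adjusted p = 0.834), Meis3 at -1.05 log2 (limma adjusted p = 0.654) and Meis2 at 0.21 log2 (limma adjusted p = 0.783). All placebo values of Meis3 were at or below the floor, so both of its differences that involve placebo depend on the floor.

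Of 28 probe sets for Polycomb and trithorax regulators, 2 were above background, Pcgf2 (513 to 810) and Jarid2 (602 to 1082), both linked to Polycomb silencing. The other Pcgf2 probe set ran from 113 to 195 and never passed the limit, so the probe sets for Pcgf2 disagreed. The medians of the 28 differences were -0.10 log2 in calcitriol against placebo, and -0.07 and -0.14 log2 in the comparisons of placebo and of calcitriol with naive. None of the 6 Cdx and Evx probe sets and none of the 8 for retinoic acid synthesis and breakdown was above background on all arrays. Transcription factors of spinal cord and hindbrain (15 probe sets) and those of forebrain and midbrain (12 probe sets), which spinal cord should largely lack, also had 0 above background. In the 5 lists of this paragraph limma called 0 members at an adjusted p under 0.05 in each of the 3 comparisons. Of their 69 probe sets 68 were tested, and 5 had an unadjusted p under 0.05 in placebo against naive, 0 in calcitriol against placebo and 4 in calcitriol against naive. The shares of all probe sets in these comparisons were 9.33%, 2.58% and 11.9%.

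As context for the calcitriol comparison, the windows of 250 bases before the start sites were read from the RefSeq promoter table (GRCm38.p6). It held 22 windows for 20 of the 31 Hox genes. The vitamin D receptor, the factor through which calcitriol acts, binds paired half-sites 3 bases apart. The letters searched were AGGTCA and the variants that read GGTTCA and also those that read AGTTCA. Any pair of them with this spacing, in direct repeat on either strand, stood in 0 of 22 windows and in 0.0244% of 32841 windows of all genes. With the spacing of 5 bases used by retinoic acid receptors, they were in 0 of 22 and in 0.0548% of all. No match says only that these letters are not in these windows. By sequence, 11 of 22 Hox windows (50%) and 30.8% of all windows were CpG-rich, with over 50% G and C and a ratio of observed to expected CpG above 0.6. The 2 members with the smallest p in placebo against naive are printed, 5′ to 3′ toward the start site and with each CpG in capitals. They differ in CpG content but do not span the Hox windows, which held 2 to 35 CpG. Hoxd8, at chr2:74704365-74704614 on the plus strand, has 6 CpG and 44.4% G and C. Hoxa5, at chr6:52204588-52204837 on the minus strand, has 28 CpG and 63.6% G and C.
Hoxd8: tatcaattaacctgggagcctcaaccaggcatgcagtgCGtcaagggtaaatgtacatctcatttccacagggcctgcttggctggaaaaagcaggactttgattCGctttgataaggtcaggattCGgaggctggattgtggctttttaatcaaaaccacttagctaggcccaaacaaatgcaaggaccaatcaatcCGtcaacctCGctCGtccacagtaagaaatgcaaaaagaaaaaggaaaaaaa
Hoxa5: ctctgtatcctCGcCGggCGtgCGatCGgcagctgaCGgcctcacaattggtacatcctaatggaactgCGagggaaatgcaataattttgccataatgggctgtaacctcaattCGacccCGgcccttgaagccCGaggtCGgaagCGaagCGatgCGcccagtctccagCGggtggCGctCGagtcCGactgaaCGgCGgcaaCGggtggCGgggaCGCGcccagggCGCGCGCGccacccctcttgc
Neither holds the letters TATAAA, which were in 13.6% of Hox windows and 12.4% of all windows on either strand.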

How the data were processed

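Expression was measured on 9 arrays, 1 per sample. The deposited table holds linear intensity signals, some below 0 and some exactly 0. The authors' scaling and summarisation, and any batch, are not given in the sources used here. Probe-level files were not used here. By the platform annotation, 10855 probe sets carry 1 symbol, 1237 carry none and 396 carry several. Symbols were used as annotated.

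Signals were scaled to a common trimmed mean (leaving out 2% at each end, 66 control probe sets excluded), with values under 10% of that mean set to that floor, before log2 was taken. limma 3.58.1 on R 4.3.3 fitted all 9 arrays at once, with an intensity trend, 6 residual degrees of freedom and Benjamini-Hochberg adjustment over all 12177 tested probe sets per comparison. The fit was also run on simulated data, with changes larger than any Hox difference of the main fit. They were set in probe sets whose mean signal lay above the floor. That run does not bear on smaller changes or on the dimmest probe sets. Tables and plots were made in Python 3.11.15 (pandas 2.3.3, matplotlib 3.10.9).

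The members and lists were chosen with earlier results of these data known. All members are named. Given in full are those above background on all arrays, any called, and the 3 with the smallest p per comparison; of the cofactor list, the 4 with the smallest p. The number of arrays limits the precision. Alternatives covered scaling, floor, filter, exact zeros, weights, trend, the arrays fitted and the background limit.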

Additional observations from a re-analysis of the deposited data

How the results depend on the processing

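No paired analysis was possible because the replicate numbers in the labels do not repeat between groups. The count of Hox probe sets above background, 1, became 4 with the 75th percentile of the other-organ genes and 27 with the floor as the limit. It became 2 when 2 of 3 arrays of each group sufficed and 2 with exact zeros ignored (chosen after seeing the data). Leaving out single arrays gave 1 to 2. With array weights limma called 4 Hox probe sets in placebo against naive, 1 in calcitriol against naive and 1 in the F test, while its calls over all probe sets rose from 114 to 639, from 244 to 1014 and from 158 to 777. Under each other alternative of scaling, floor, filter, zeros, trend, arrays fitted or array left out, limma called 0 in each comparison. Without scaling, the median of all probe sets in placebo against naive moved from -0.02 to 0.11 log2 and that of Hox from -0.02 to 0.11, with 27 of 38 then higher. The differences of the members with the smallest p kept their sign under each of these alternatives. For Hoxd8 (93221_at) placebo against naive ran from -0.97 to -0.67 log2, with adjusted p from 0.0466 to 0.414. With 3 arrays per group, and most Hox signals at the level of other-organ probe sets, smaller changes were not detectable.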

Other observations

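Of the 5 probe sets that name a Hox gene but fall outside the rule, 1 was above background on all arrays. It is 98367_at, a plain probe set annotated to both Hoxd4 and Hoxd3, which lie next to each other in cluster D. It read 469, 613 and 780 on naive replicates 2, 3 and 4, 523, 638 and 645 on placebo replicates 1, 5 and 10, and 639, 614 and 587 on calcitriol replicates 6, 7 and 8, with all groups overlapping. The other probe set annotated to this pair, 102380_s_at, ran from 193 to 313 and never passed the limit. A probe set shared by Hoxb8 and Hoxb7, 92915_s_at, ran from 306 to 678 and passed on naive replicate 2 alone. The probe sets for Hoxa11os, the antisense RNA of Hoxa11, ran from 81.3 to 132 and from 41.6 to 87.2.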
